A study of Mus musculus with 19 samples.

Results

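Livers that lacked both Ager and Myd88 were compared with WT livers across all measured genes, 2 h after 85% of the liver had been removed. The comparison took the 4 arrays titled as the double knockout and the 5 titled WT, 9 of the 19 arrays in the series. The arrays are numbered as replicates with no statement that each came from a separate mouse, so p-values measure the spread between these samples. All mice were male C57BL/6 mice aged 10 to 12 weeks, and every mouse, WT included, had undergone the resection. The double-null group carried the genotype label Ager null, Myd88 null (n = 4). The Ager null (n = 6) and Myd88 null (n = 4) groups entered the same fit and are given beside the results, and the WT group (n = 5) served as the control. Unresected liver was not analysed here, and each difference is therefore between genotypes after surgery. The labels describe deletions carried by the whole animal and name no cell type in which a gene was removed. They give the strain of all groups as C57BL/6 and say nothing of the number of backcrosses.

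Ager encodes RAGE, a cell-surface receptor of the immunoglobulin family that binds HMGB1, S100 proteins and advanced glycation end products. Myd88 encodes the adaptor that couples most Toll-like receptors and the receptors for IL-1 and IL-18 to IRAK kinases and TRAF6, and so to NF-kB and MAP kinases. After partial hepatectomy, Kupffer cells answer such signals with cytokines and chemokines, and hepatocytes pass through a priming phase with immediate early genes and acute phase genes before they enter the cell cycle.

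Values are log2 expression values per probe set, so a difference of 1 is a 2-fold change. A gene was represented by its brightest probe set with a single symbol, and 8515 genes with a value over log2 4 on at least 4 arrays were tested with limma in 1 fit of all 4 groups. A gene was called at a Benjamini-Hochberg adjusted p under 0.05 over those genes. Differences are given as double null minus WT with the standard error of the fit. Median correlations of an array with the others lay at 0.979 or above except for Myd88 null replicate 4, at 0.965. Of 13 hepatocyte markers, 12 were over log2 4 on all 19 arrays, with a median level of 14.3. One protocol field mentions glomeruli, although every sample is labelled as liver. Of 11 kidney and glomerulus markers, 0 were over log2 4 on all arrays and 10 were under log2 4 on every array.

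Myd88 transcripts were low on each double-null array. The values were 3.63, 3.86, 3.72 and 2.60 in double-null livers, against 5.92, 5.24, 5.72, 5.63 and 5.26 in WT livers. The groups did not overlap, and the difference was -2.10 ± 0.25 (limma adjusted p = 0.000186). Myd88 null livers averaged 3.49 and Ager null livers 5.91. The brighter Ager probe set lay under the filter in both genotypes, with means of 3.37 in double-null livers and 3.26 in WT livers, and therefore checks nothing about the Ager deletion.

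Between double-null and WT livers 27 genes were called (0.317% of those tested). Of these, 16 were higher in double-null livers (0.188% of tested genes) and 11 were lower (0.129%). Fold differences ran between 1.65 and 7.30 for the higher genes and between 1.85 and 9.49 for the lower ones, with limma adjusted p-values between 1.06e-06 and 0.0463. The double-null and WT arrays did not overlap for 26 of the 27, Snapc2 being the exception. Without overlap were 324 of all tested genes (3.81%), and 730 (8.57%) had an unadjusted p under 0.05. Of the called genes 12 lay on chromosome 17, which carries Ager, 5 on chromosome 9, Myd88 among them, and 10 elsewhere. Without double-null replicate 3 the count was 18, all of them among the 27. Of 29 further probe sets of the called genes, 6 differed in the opposite direction and 11 did not overlap between the groups.

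**Figure D1:**
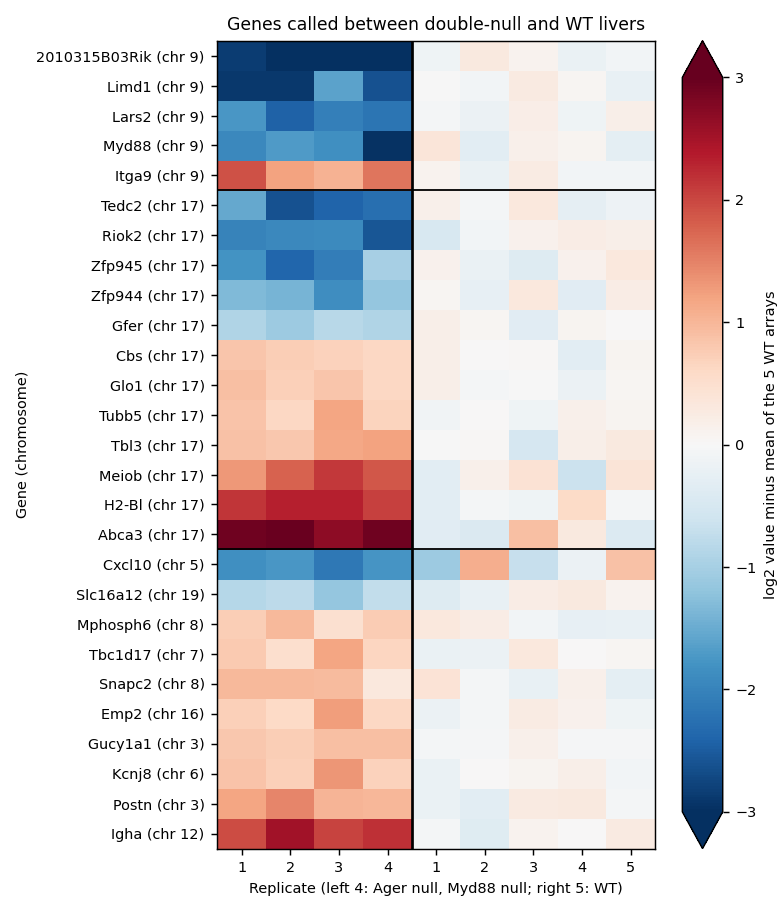
Log2 value of each called gene minus its mean over the 5 WT arrays, shown by colour for each array, with the 4 double-null arrays left of the 5 WT arrays and genes grouped into chromosome 9, chromosome 17 and other chromosomes. The double-null columns go the same way on all 4 arrays for each gene, and the darkest rows are the chromosome 9 and 17 genes 2010315B03Rik, Limd1 and Abca3.

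On chromosome 9, 3 further genes were lower and 1 was higher, and all 4 lay within 150 annotated genes of Myd88 in the gene order of the RefSeq table. The gene known only as 2010315B03Rik had values of 5.003, 4.84, 4.42 and 4.18 in double-null livers, against 7.73, 8.16, 7.96, 7.67 and 7.77 in WT livers. Its difference of -3.25 ± 0.26 was the largest fall among the called genes (adjusted p = 1.06e-06). Limd1, which encodes a LIM-domain scaffold protein, read 4.72, 4.71, 6.00 and 4.99 in double-null livers, against 7.60, 7.54, 7.88, 7.67 and 7.39 in WT livers. Every double-null array lay below every WT array for both genes. Lars2, the mitochondrial leucyl-tRNA synthetase, had values of 3.68, 3.01, 3.38 and 3.23 in double-null livers, against 5.37, 5.24, 5.64, 5.29 and 5.60 in WT livers. Itga9, the integrin alpha-9 subunit, went the other way, with 4.94, 4.23, 4.08 and 4.64 in double-null livers, against 3.12, 2.83, 3.28, 2.95 and 2.95 in WT livers. Itga9 was not called when values under log2 4 were set to 4 (adjusted p = 0.202), since its WT values lie below that level. Its other probe sets, with means under log2 4, differed by -0.06 and 0.33 with overlap.

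The chromosome 9 genes had levels close to those of the Myd88 null group. 2010315B03Rik averaged 4.61 in double-null, 4.83 in Myd88 null, 7.52 in Ager null and 7.86 in WT livers. Limd1 averaged 5.11 in double-null, 5.38 in Myd88 null, 7.78 in Ager null and 7.62 in WT livers. Itga9 averaged 4.47 in double-null, 4.57 in Myd88 null, 3.14 in Ager null and 3.03 in WT livers. Between double-null and Myd88 null livers the differences were -0.22 ± 0.28 for 2010315B03Rik, -0.27 ± 0.29 for Limd1, 0.12 ± 0.17 for Lars2 and -0.10 ± 0.16 for Itga9. None of these 4 passed the test, with adjusted p-values between 0.639 and 0.762. Over all tested genes, 13 (0.153%) were called between double-null and Myd88 null livers, a count that rests on single arrays. It was 446 without Myd88 null replicate 1, 3 without replicate 2, 6 without replicate 3 and 2 without replicate 4, and it was 8, 2 and 8 without double-null replicates 1, 3 and 4.

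Of 60 other tested genes within 150 annotated genes of Myd88, 4 were called (6.67%). Over the whole of chromosome 9 the count was the same 4 genes of 480 (0.833%), and on chromosomes other than 9 and 17 it was 10 of 7633 (0.131%). On chromosome 17, 12 of 401 genes were called (2.99%), 7 of them higher and 5 lower. Only 2 of these, Tubb5 and H2-Bl, lay among the 87 tested genes within 150 annotated genes of Ager. The others lay on 1 side of it, at offsets from -151 (Cbs) to -688 (Riok2) annotated genes.

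**Figure D2:**
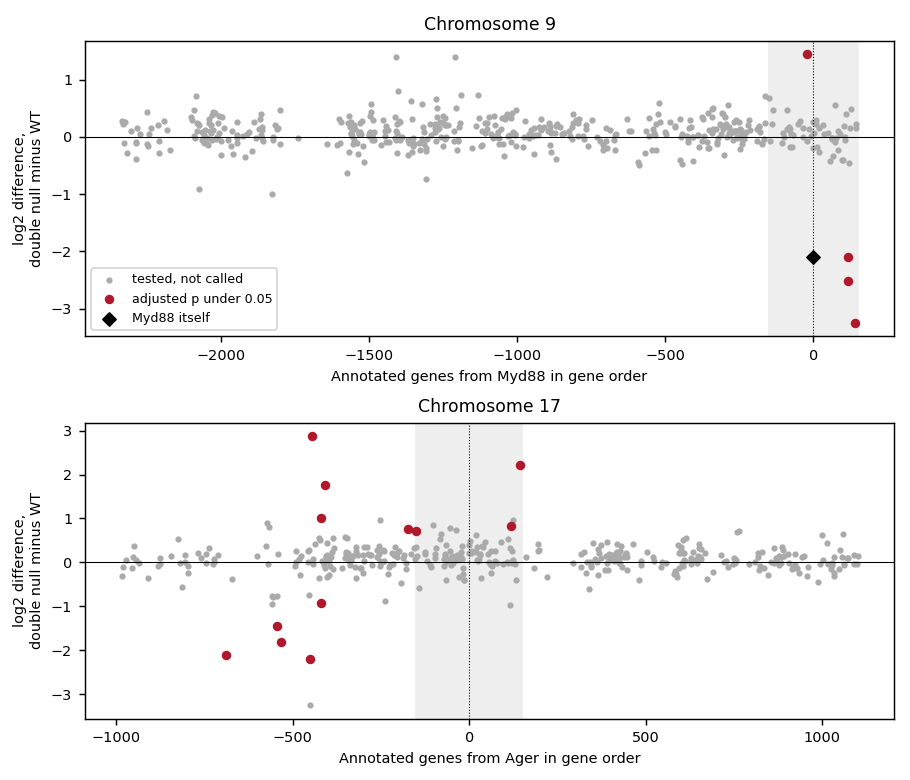
Log2 difference, double null minus WT, of each tested gene of chromosome 9 (top) and chromosome 17 (bottom) against its distance from Myd88 or Ager, counted in annotated genes, with 150 genes on each side shaded, called genes in red and Myd88 as a black diamond. The 4 called neighbours of Myd88 all fall in the shaded span, while 10 of the 12 called genes of chromosome 17 lie outside it on the left.

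Among the chromosome 17 genes, the largest rise was that of Abca3, an ATP-binding cassette transporter of phospholipids. Its values were 9.78, 9.82, 9.54 and 9.76 in double-null livers, against 6.51, 6.42, 7.76, 7.15 and 6.45 in WT livers, a difference of 2.87 ± 0.38 (adjusted p = 0.000644). A dimmer Abca3 probe set differed by 2.99 in the same direction without overlap, and the dimmest, under log2 4 in both groups, by 0.04. H2-Bl, a class I histocompatibility gene, read 9.20, 9.39, 9.38 and 9.10 in double-null livers, against 6.73, 6.99, 6.91, 7.63 and 6.98 in WT livers. Both genes separated the groups by more than the whole range of either group. Class I genes resemble one another in sequence and probe sequences were not analysed here, so the H2-Bl level is that of its probe set.

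The enzyme genes Glo1 and Cbs were also higher. Glo1, the glyoxalase that detoxifies methylglyoxal, a precursor of the advanced glycation end products that RAGE binds, differed by 0.77 ± 0.10 (adjusted p = 0.000718), with 13.62 to 13.91 in double-null livers and 12.84 to 13.20 in WT livers. The 3 dimmer Glo1 probe sets differed by 0.93, 1.28 and 0.89, again without overlap. Cbs, which encodes cystathionine beta-synthase, differed by 0.72 ± 0.14 (adjusted p = 0.0225). The rise of Cbs kept its call under 14 of 21 alternative settings and lost it without any one of WT replicates 2, 3 and 4 or double-null replicates 1, 2 and 3 (estimates between 0.64 and 0.76). Tubb5, a beta-tubulin, differed by 0.83 ± 0.14, and Meiob, which acts in meiotic recombination, by 1.77 ± 0.29. With the probe sets of a gene averaged, Tubb5 was no longer called (adjusted p = 0.319).

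Riok2, an atypical kinase that acts in maturation of the small ribosomal subunit, fell. Its values were 7.72, 7.79, 7.81 and 7.15 in double-null livers, against 9.25, 9.65, 9.85, 9.95 and 9.90 in WT livers (difference -2.10 ± 0.31, adjusted p = 0.00164). Tbl3, a component of the small-subunit processome, rose by 1.02 ± 0.19 (adjusted p = 0.0188), with 6.31, 6.24, 6.59 and 6.64 in double-null livers, against 5.42, 5.47, 4.92, 5.61 and 5.72 in WT livers. These were the called members of a list of 24 ribosome biogenesis genes, 1 higher and 1 lower, whose median difference was -0.10. The call of Tbl3 was lost without WT replicate 3, double-null replicate 3 or double-null replicate 4, with adjusted p up to 0.106. Tedc2, which encodes a protein of a centriolar tubulin complex, read 7.54, 6.44, 6.66 and 6.80 in double-null livers, against 9.22, 9.02, 9.38, 8.80 and 8.91 in WT livers. The zinc finger genes Zfp944 and Zfp945 differed by -1.44 ± 0.22 and -1.81 ± 0.37, with double-null means under log2 4. Other Zfp945 probe sets differed the opposite way, by 0.39 and 0.38, and those of Zfp944 by -0.43 and 0.06, all with overlap. Zfp944 lost its call with the probe sets of a gene averaged (adjusted p = 0.136), and Zfp945 kept its call under 9 of the 19 settings that tested it, with leave-one-out estimates between -2.08 and -1.62. Of the 9 WT and double-null arrays, leaving out any one other than WT replicate 3 or double-null replicate 4 ended the call of Zfp945.

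Gfer, which encodes the sulfhydryl oxidase named augmenter of liver regeneration, gave opposite answers with its pair of probe sets. On the brighter, double-null livers read 9.74, 9.54, 9.81 and 9.73, against 10.81, 10.69, 10.29, 10.71 and 10.65 in WT livers (difference -0.93 ± 0.16, adjusted p = 0.00830). On the dimmer, double-null livers averaged 8.12 ± 0.44 (SD, n = 4) and WT livers 5.46 ± 0.47 (SD, n = 5), a difference of 2.66. The groups did not overlap on either probe set, so the direction of Gfer depends on which is read. With the 2 averaged the difference was 0.87.

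For several chromosome 17 genes the double-null level was near that of the Ager null group. Abca3 averaged 9.72 in double-null, 9.71 in Ager null, 7.96 in Myd88 null and 6.86 in WT livers. Riok2 averaged 7.62 in double-null, 7.68 in Ager null, 9.16 in Myd88 null and 9.72 in WT livers, and Glo1 averaged 13.78, 13.84, 13.16 and 13.01 in the same order. The brighter Gfer probe set averaged 9.70 in double-null, 9.86 in Ager null, 10.57 in Myd88 null and 10.63 in WT livers. Differences between double-null and Ager null livers were 0.01 ± 0.37 for Abca3, -0.06 ± 0.30 for Riok2, -0.06 ± 0.10 for Glo1 and -0.15 ± 0.15 for Gfer, and none passed the test (adjusted p between 0.585 and 0.989). Tedc2 averaged 6.86 in double-null, 8.09 in Ager null, 9.88 in Myd88 null and 9.06 in WT livers. Its Ager null arrays were widely spread, at 8.89, 8.94, 8.92, 6.94, 7.91 and 6.94. The double-null level of Tedc2 differed from the Myd88 null group by -3.02 ± 0.40 (adjusted p = 0.00208). It did not differ past the threshold from the Ager null group (-1.23 ± 0.36, adjusted p = 0.0761). Between double-null and Ager null livers 208 genes were called (2.44%). Leaving out 1 array of either group gave 18 (without double-null replicate 3) to 141 (without Ager null replicate 5), and each such array other than that last one moved the count by over 1.5 times. The sample descriptions carry an S number of unstated meaning, and no range of it (1 to 6, 7 to 12 or 13 to 20) holds arrays of both these groups. Genotype and S range therefore cannot be told apart there.

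The 10 called genes on other chromosomes held 2 that were lower, Cxcl10 and Slc16a12. Cxcl10 encodes a chemokine that attracts T cells through CXCR3 and is induced by interferons and NF-kB. Its values were 4.39, 4.46, 4.07 and 4.46 in double-null livers, against 5.13, 7.30, 5.54, 6.04 and 7.09 in WT livers. The double-null arrays lay within a narrow band below all WT arrays, which were widely spread, and the difference was -1.88 ± 0.39 (adjusted p = 0.0437). The call held under 8 of 20 alternative settings, and adjusted p ranged between 0.0101 and 0.218 over them. It was lost without WT replicate 2, 4 or 5, without any one of the double-null arrays and without Myd88 null replicate 4, with estimates between -2.15 and -1.61 when a WT or double-null array was left out. Myd88 null livers averaged 4.78 and Ager null livers 5.22, and the double-null level differed from neither past the threshold (adjusted p = 0.590 and 0.183).

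Slc16a12, a member of the monocarboxylate transporter family, read 9.11, 9.18, 8.81 and 9.23 in double-null livers, against 9.58, 9.75, 10.18, 10.25 and 10.09 in WT livers. The groups stood apart by less on the S 1 to 6 arrays (-0.52) than on the S 7 to 12 arrays (-1.20), each 2 against 2 arrays with no test, and the overall difference was -0.89 ± 0.15 (adjusted p = 0.00888). Without double-null replicate 3 it was not called (adjusted p = 0.0629). All 27 called genes kept their direction within both S ranges, with a median size of 1.58 in the first and 1.35 in the second. For the 26 genes without overlap the direction could not have turned, so this is no check on the S number.

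Several chemokines besides Cxcl10 did not overlap between the groups. Of 12 tested CXC and CC chemokines, 1 passed the test, 5 lay above and 7 below WT, and the median difference was -0.11 (between -0.21 and -0.04 with 1 array left out), beside 0.07 over all tested genes. Cxcl1, a neutrophil attractant, had values of 8.23, 9.36, 7.05 and 5.65 in double-null livers, against 10.86, 9.95, 12.22, 11.73 and 11.58 in WT livers. The groups did not overlap, but the double-null arrays spanned several log2 units, and the difference of -3.70 ± 0.87 did not pass (adjusted p = 0.102). The size of the Cxcl1 difference was -1.61 on the S 1 to 6 arrays and -5.62 on the S 7 to 12 arrays. Its dimmer probe sets differed by -4.47 and -2.15.

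Ccl2, the main monocyte attractant, read 3.34, 3.83, 3.95 and 4.15 in double-null livers, against 4.30, 4.97, 5.07, 5.11 and 5.38 in WT livers (difference -1.15 ± 0.29, adjusted p = 0.135). Cxcl13, which attracts B cells, read 3.60, 4.63, 4.38 and 3.31 in double-null livers, against 5.57, 6.02, 4.69, 5.42 and 7.30 in WT livers (difference -1.82 ± 0.53, adjusted p = 0.235). Neither gene overlapped between the groups, and neither passed the test. The 4 chemokines named here were all without overlap, 4 of 12 in the list beside 3.81% of all tested genes. They are its members of smallest p, and the list was drawn up with earlier results known, so this share is no separate support. Cxcl1 averaged 7.57 in double-null, 10.20 in Ager null and 8.96 in Myd88 null livers. In the same order Ccl2 averaged 3.82, 4.55 and 3.93, and Cxcl13 3.98, 5.21 and 3.46. The list median minus WT was -0.25 in Ager null and -0.44 in Myd88 null livers.

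**Figure D3:**
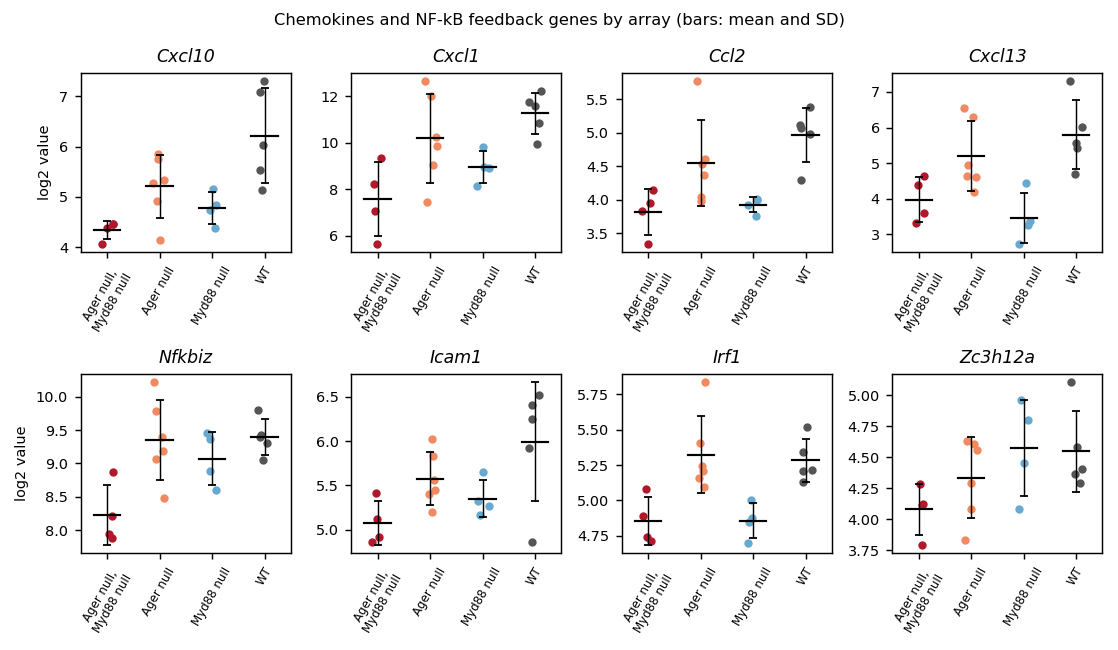
Log2 values of 4 chemokine genes and 4 NF-kB feedback or target genes in the 4 genotypes, 1 point per array, with double-null arrays at the left and WT at the right, and bars for the mean and SD. For Cxcl10, Cxcl1, Ccl2, Cxcl13, Nfkbiz, Irf1 and Zc3h12a every double-null point lies below every WT point, and for Icam1 the lowest WT array lies below the double-null arrays.

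The promoters of Cxcl10 and Cxcl1 are shown as the searched chemokine promoters that held NF-kB matches. Binding of NF-kB and its part in these differences were not tested. Both were read from the RefSeq promoter table of GRCm38.p6, from 250 bases before to 50 bases after the gene start, with motif matches in capitals.
Cxcl10, chr5:92348840-92349139, minus strand: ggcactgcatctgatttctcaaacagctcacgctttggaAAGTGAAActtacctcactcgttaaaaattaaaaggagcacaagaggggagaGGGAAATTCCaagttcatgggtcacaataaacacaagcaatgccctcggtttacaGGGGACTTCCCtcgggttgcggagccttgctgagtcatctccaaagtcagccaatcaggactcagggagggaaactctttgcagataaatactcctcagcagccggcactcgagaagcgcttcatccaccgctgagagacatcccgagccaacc
Cxcl1, chr5:90890995-90891294, plus strand: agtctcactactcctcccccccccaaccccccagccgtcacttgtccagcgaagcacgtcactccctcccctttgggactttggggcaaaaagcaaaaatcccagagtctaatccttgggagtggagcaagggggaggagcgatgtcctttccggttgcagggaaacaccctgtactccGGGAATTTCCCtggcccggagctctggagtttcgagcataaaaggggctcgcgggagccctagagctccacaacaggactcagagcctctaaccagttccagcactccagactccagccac
The capitals in Cxcl10 mark, in order, 1 match to the interferon regulatory factor core AANNGAAA, starting at position -211 from the gene start, a match to the NF-kB consensus at -159 and a run of overlapping NF-kB matches from -104. The capitals in Cxcl1 mark a pair of overlapping NF-kB matches on opposite strands, which start at -71 and -70. Both strands were searched. The NF-kB consensus was found in 8.46% of the 32851 promoters of the table and AANNGAAA in 23.9%. Among the other searched genes, the Cxcl13, Il1a, Icam1 and Zc3h12a promoters held no match to either, Il1b and Il18 held 1 match to AANNGAAA each, and 1 of the 2 Irf1 promoters held a pair of NF-kB matches at the same position on opposite strands.

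NF-kB subunits and feedback genes were next. Of 15 tested, 0 passed limma's adjusted threshold, 5 had an unadjusted p under 0.05 and 11 lay below WT, with a median difference of -0.29. Over all tested genes, 8.57% had an unadjusted p under 0.05 by limma and 3053 of 8515 lay below WT, with a median of 0.07. The list median was -0.09 on the S 1 to 6 arrays and -0.37 on the S 7 to 12 arrays. Without double-null replicate 4 it was -0.13, and leaving out WT replicate 3 or 4 also lowered its size by over 1.5 times. Nfkbiz, which encodes the nuclear inhibitor-like cofactor IkB-zeta, read 7.95, 8.87, 7.89 and 8.22 in double-null livers, against 9.31, 9.40, 9.06, 9.79 and 9.43 in WT livers (difference -1.17 ± 0.29, adjusted p = 0.131). All double-null values lay below all WT values. The same gene was called between double-null and Ager null livers, which share no S range (-1.13 ± 0.28, adjusted p = 0.0459), while Myd88 null livers averaged 9.07. Nfkbiz did not pass the test between double-null and Myd88 null livers (adjusted p = 0.242). Irf1, a transcription factor of the interferon response, differed by -0.43 ± 0.14 without overlap, the adhesion molecule gene Icam1 by -0.92 ± 0.26 with overlap, and Zc3h12a, the RNase that degrades cytokine messages, by -0.47 ± 0.21, its highest double-null and lowest WT arrays both at 4.29. Rela, the p65 subunit, lay on the other side of WT at 0.32.

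The receptors, adaptors and ligands of the pathway held no called gene apart from Myd88 itself. No Toll-like receptor gene of the list passed the filter on dim genes. Of the 6 tested members, the lipopolysaccharide co-receptors and carriers Cd14, Ly96 and Lbp and the IL-1 receptor genes Il1r1, Il1r2 and Il1rap, 5 lay below WT (median -0.16, between -0.25 and -0.09 with 1 array left out). Il1r1, the signalling receptor of IL-1, had the smallest p of them, with 8.52, 8.06, 8.29 and 8.41 in double-null livers, against 9.02, 8.56, 9.03, 9.19 and 8.33 in WT livers (difference -0.51 ± 0.24, adjusted p = 0.585). Its groups overlapped. Of 14 adaptors and kinases 11 lay above WT (median 0.16), beside 5462 of 8515 over all tested genes (median 0.07). The 11 included the ubiquitin ligase Traf6 (0.54 ± 0.18) and the inhibitory adaptor Tollip (0.27 ± 0.10). Traf6 showed no overlap between the groups, and its adjusted p was 0.330. Among the ligands, of 11 RAGE and Toll-like receptor ligands 8 lay above WT (median 0.07, or -0.02 with each array centred on its median). The ligand median was -0.38 on the S 1 to 6 arrays and 0.40 on the S 7 to 12 arrays, so its direction differed between them, and it fell below 0 without WT replicate 3 or double-null replicate 4. The ligands S100a8 and S100a9, which form calprotectin, lay at -0.42 ± 0.53 and -0.33 ± 0.55. The 3 tested cytokines of the priming phase, Il1a, Il1b and Il18, lay at -0.26, -0.29 and -0.05. Of these receptor, adaptor, ligand and cytokine lists, only the adaptors held members, 3 of 14, at an unadjusted p under 0.05 by limma. The share over all tested genes was 8.57%.

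Acute phase genes of the IL-6 and STAT3 axis did not move as 1 group. None of 32 passed the adjusted threshold and 5 had an unadjusted p under 0.05, with 11 above WT, 21 below and a median of -0.10. The shares over all tested genes were 8.57% at an unadjusted p under 0.05 by limma and 3053 of 8515 below WT. The serum amyloid genes went different ways. Saa2 read 8.61, 8.74, 9.06 and 8.89 in double-null livers, against 11.63, 10.04, 9.44, 10.18 and 10.05 in WT livers, without overlap (difference -1.44 ± 0.46, adjusted p = 0.292). Saa1 likewise lay lower without overlap (-0.99 ± 0.38), whereas Saa3, the form made outside hepatocytes as well, lay higher at 1.33 ± 0.35 (adjusted p = 0.167) with overlapping groups. Saa1 and Saa2 are near-identical in sequence, so their probe sets may not be independent readings. Socs3, the feedback inhibitor of IL-6 signalling, lay at -0.83 ± 0.38.

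Of 25 immediate early genes 0 passed, 3 had an unadjusted p under 0.05 by limma, and the median was -0.12. That share is near the 8.57% of all tested genes. Junb lay at -0.52 ± 0.19, Ier3 at -0.97 ± 0.38 and Ier2 at 0.75 ± 0.33. Of 22 interferon-stimulated genes 18 lay above WT, beside 5462 of all 8515 tested genes. None of the 22 passed, and none had an unadjusted p under 0.05. Their median was 0.14 over all arrays, -0.40 on the S 1 to 6 arrays and 0.59 on the S 7 to 12 arrays. The direction of that list therefore differed between the S ranges.

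Metabolic lists held few departures. Of 19 cholesterol synthesis genes 17 lay below WT, beside 3053 of all 8515 tested genes. The list had the lowest median of the lists with 3 or more tested members (-0.36). None passed limma's adjusted threshold, and only Pmvk had an unadjusted p under 0.05 (-0.61 ± 0.25). Against the same WT arrays the list median was -0.21 in Ager null livers and, lower than in the double null, -0.58 in Myd88 null livers. The double-null list median was -0.75 on the S 1 to 6 arrays and -0.03 on the S 7 to 12 arrays, so the difference sat mostly in the first range. It was -0.10 without double-null replicate 1, no longer the lowest of the lists, and -0.56 without double-null replicate 4. Lss, the lanosterol synthase, read 7.84, 9.47, 8.63 and 9.62 in double-null livers, against 10.10, 9.55, 9.69, 9.01 and 9.64 in WT livers, and its groups overlapped. G0s2, an inhibitor of the triglyceride lipase ATGL, had values of 8.37, 5.66, 5.61 and 6.35 in double-null livers, against 8.87, 9.76, 8.85, 10.96 and 9.39 in WT livers. No array overlapped, and the difference of -3.07 ± 0.71 did not pass (adjusted p = 0.0983). G0s2 was called against both single nulls, at -2.64 ± 0.68 against the Ager null group (adjusted p = 0.0488) and at -4.24 ± 0.75 against the Myd88 null group (adjusted p = 0.0254). These comparisons share the double-null arrays, and the Ager null arrays share no S range with them. Without double-null replicate 3, the calls over all tested genes fell to 18 against Ager null and 2 against Myd88 null livers.

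Ppp1r3b, a glycogen-targeting subunit of protein phosphatase 1, also had its lowest mean in the double-null group. It averaged 9.54 in double-null, 10.42 in Ager null, 10.62 in Myd88 null and 10.11 in WT livers. With the limits given for G0s2, it was called against both single nulls (adjusted p = 0.0298 and 0.0464) and not against WT (-0.57 ± 0.20, adjusted p = 0.347). Noct, the rhythmic phosphatase nocturnin, read 11.79, 11.46, 11.34 and 11.60 in double-null livers, against 10.48, 10.39, 11.28, 10.80 and 11.13 in WT livers (0.73 ± 0.21, adjusted p = 0.211). Fkbp5, a glucocorticoid-induced co-chaperone, lay at -0.87 ± 0.28 (adjusted p = 0.298). Both genes differed past the threshold from the Ager null group, which shares no S range with the double-null arrays (adjusted p = 0.00301 for Noct and 0.00730 for Fkbp5).

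The other pathway lists had 0 called members among those tested: cell cycle (15), fatty acid and triglyceride synthesis (21), fatty acid oxidation (17), gluconeogenesis (16), clock (15), glucocorticoid response (14), heat shock (16), endoplasmic reticulum stress (22), cytochrome P450 and conjugation (18) and bile acids (17). Each had 0 to 2 members at an unadjusted p under 0.05 by limma, beside 8.57% of all tested genes. Their medians lay between -0.25 for the clock genes and 0.10 for the cell cycle genes. Growth factors had 1 called of 11, Gfer, and class I histocompatibility and peptide loading genes 1 of 14, H2-Bl.

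**Figure D4:**
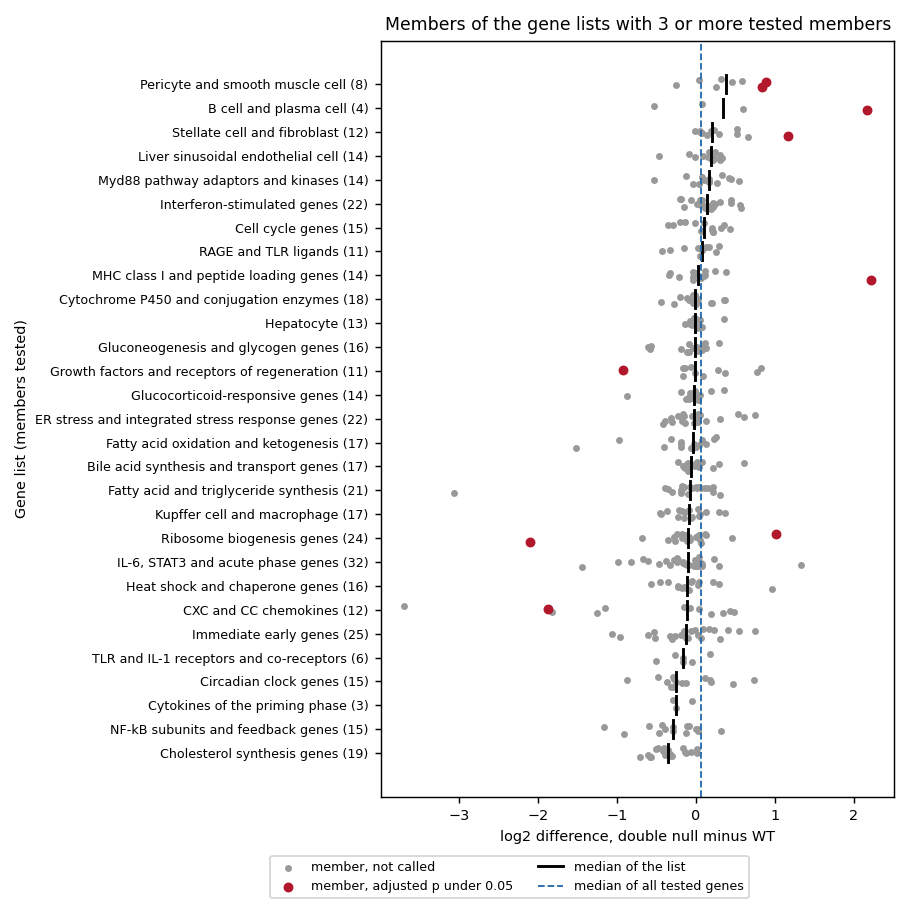
Log2 difference, double null minus WT, of each tested member of the gene lists with 3 or more tested members, with called members in red, the list median as a black bar and the median of all tested genes (0.07) as a dashed line. Pericyte and smooth muscle markers have the highest median (0.39) and cholesterol synthesis genes the lowest (-0.36), and 9 members in all are red.

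Outside chromosomes 9 and 17, the higher genes included markers of contractile vessel-associated cells. Gucy1a1, the alpha subunit of soluble guanylate cyclase and hence part of the receptor for nitric oxide, read 6.27, 6.20, 6.37 and 6.37 in double-null livers, against 5.41, 5.42, 5.61, 5.43 and 5.44 in WT livers. Neither group spread much, and the difference was 0.84 ± 0.13 (adjusted p = 0.00204). Kcnj8, the pore subunit of an ATP-sensitive potassium channel of pericytes and smooth muscle, read 5.64, 5.52, 6.11 and 5.48 in double-null livers, against 4.59, 4.81, 4.87, 4.98 and 4.71 in WT livers (0.89 ± 0.16, adjusted p = 0.0103). Without double-null replicate 3, which had its highest value, Kcnj8 was not called (adjusted p = 0.0645, difference 0.75).

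Both genes were also higher than in Ager null livers, Gucy1a1 by 0.55 ± 0.12 (adjusted p = 0.0312) and Kcnj8 by 0.82 ± 0.15 (adjusted p = 0.0141). The Ager null arrays share no S range with the double-null arrays. Against Myd88 null livers the differences were 0.56 ± 0.13 and 0.78 ± 0.17 and did not pass (adjusted p = 0.104 and 0.0675). Of 8 tested pericyte and smooth muscle markers, 2 were called and 7 lay above WT, with a median of 0.39, beside 0.317% called, 5462 of 8515 above WT and a median of 0.07 over all tested genes. These shares are no separate support, since the list was drawn up with earlier results of these data known and holds both called genes. Without double-null replicate 4 the list median was 0.25. Their partner subunits did not pass, Abcc9 at 0.45 ± 0.23 and Gucy1b1 at 0.04. Array medians of the list, as a difference from the WT mean, ran between 0.13 and 0.64 in double-null livers and between -0.13 and 0.05 in WT livers. For the whole list the median was 0.004 on the S 1 to 6 arrays and 0.66 on the S 7 to 12 arrays, while Gucy1a1 (0.82 and 0.85) and Kcnj8 (0.88 and 0.87) were alike in both. Of 14 markers on the array, 6 were under log2 4 on all arrays, among them the smooth muscle genes Myh11 and Cnn1 and the pericyte genes Cspg4, Notch3 and Higd1b. In RNA of whole liver, more cells of a type and more RNA per cell cannot be told apart.

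Postn, which encodes the matrix protein periostin, read 8.20, 8.47, 8.03 and 8.01 in double-null livers, against 6.81, 6.69, 7.28, 7.31 and 6.95 in WT livers (1.17 ± 0.21, adjusted p = 0.0103). Without double-null replicate 2 it was not called (adjusted p = 0.0591, difference 1.07). Postn was high in all deletion groups, with means of 8.18 in double-null, 7.93 in Ager null, 8.35 in Myd88 null and 7.01 in WT livers. The single nulls differed from the same WT arrays by 0.92 ± 0.19 (Ager null, adjusted p = 0.0297) and 1.34 ± 0.21 (Myd88 null, adjusted p = 0.00382). Of 12 stellate cell and fibroblast markers 11 lay above WT (median 0.21), beside 5462 of all 8515 tested genes, and only Postn was called. Array medians of that list, as differences from the WT mean, ran between 0.20 and 0.44 in double-null livers and between -0.19 and 0.23 in WT livers. Lrat and Dcn, further stellate cell genes, lay at 0.05 and -0.005.

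Igha, the heavy chain of immunoglobulin A, read 5.90, 6.46, 5.98 and 6.15 in double-null livers, against 3.89, 3.60, 4.06, 3.97 and 4.22 in WT livers (2.17 ± 0.31, adjusted p = 0.00137). Its 2 dimmer probe sets differed by 1.52 and 1.23 without overlap. Igha averaged 6.12 in double-null, 5.30 in Ager null, 5.98 in Myd88 null and 3.95 in WT livers, and each single null differed from the shared WT arrays (1.35 ± 0.28 for Ager null and 2.04 ± 0.31 for Myd88 null, adjusted p = 0.0326 and 0.00368). Of the other tested B cell and plasma cell markers, Jchain lay at 0.60 ± 0.22 without overlap, Ighm at -0.53 ± 0.25 and Sdc1 at 0.08 ± 0.12, and none of these passed. Cd79a, Cd79b, Ms4a1, Cd22, Mzb1 and Pou2af1 were under log2 4 on all arrays. Array medians of the 4 tested markers, as differences from the WT mean, ran between 0.20 and 0.63 in double-null livers and between -0.09 and 0.13 in WT livers. Igha is itself among the 4, and Jchain averaged 3.52 in WT and 3.47 in Ager null livers, under the filter level. These medians are therefore no separate support for the Igha difference. The part of cell number in the Igha difference was not tested.

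**Figure D5:**
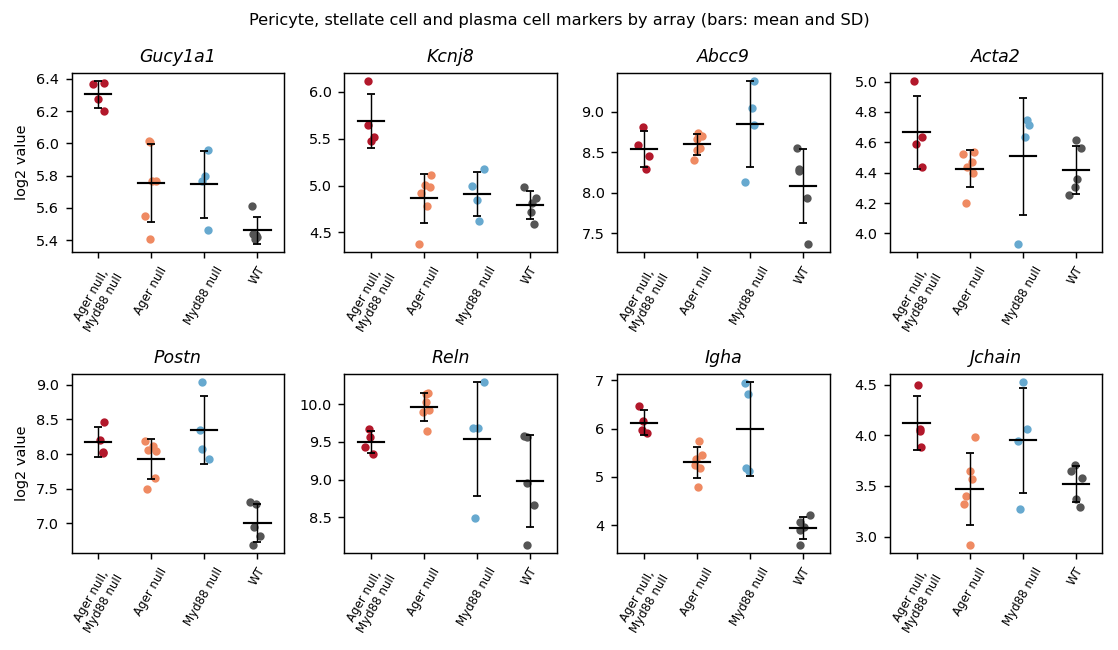
Log2 values of 8 marker genes in the 4 genotypes, 1 point per array, with double-null arrays at the left and WT at the right, and bars for the mean and SD. Gucy1a1 and Kcnj8 are highest in the double-null group, whereas Postn and Igha are above WT in all 3 deletion groups.

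The remaining called genes differed by 0.75 to 0.80. Mphosph6, a cofactor of the RNA exosome, averaged 5.26 in double-null livers and 4.51 in WT livers. Tbc1d17, a Rab GTPase-activating protein, averaged 6.44 in double-null livers and 5.66 in WT livers. Snapc2, a subunit of the complex that drives transcription of small nuclear RNAs, averaged 8.20 in double-null livers and 7.40 in WT livers, and Emp2, an epithelial membrane protein, averaged 6.16 and 5.35 in the same order. Their calls depended on the setting. Emp2 was called under 4 of 20 alternative settings, Snapc2 under 8 of 21, Tbc1d17 under 16 of 21 and Mphosph6 under 17 of 20. Emp2 held its call only without WT replicate 3 among the 9 single arrays left out, and Snapc2 only without WT replicate 1 or double-null replicate 4, with estimates of 0.65 to 0.87 and 0.73 to 0.97. Tbc1d17 lost its call without WT replicate 1 or 2 or double-null replicate 1 or 3 (0.65 to 0.87), and Mphosph6 without double-null replicate 2 (adjusted p = 0.0591).

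Markers of the main liver cell types had 0 called members. Hepatocyte markers had a median difference of -0.01 over 13 genes, sinusoidal endothelial markers 0.19 over 14 and Kupffer cell and macrophage markers -0.09 over 17, with none at an unadjusted p under 0.05 in any of these 3 lists by limma. Array medians of the Kupffer list, as differences from the WT mean, ran between -0.43 and 0.18 in double-null livers and between -0.47 and 0.19 in WT livers. Of the 11 neutrophil markers on the array only S100a8 and S100a9 were tested, and Mpo, Elane, Ngp, Camp, Ltf, Mmp9 and Cxcr2 were under log2 4 on all arrays. None of 11 T cell and NK cell markers reached log2 4 on any array.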

How the data were processed

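Each of 19 liver RNA samples was measured on 1 Affymetrix array and grouped by its title. The authors deposited log2 values per probe set, made with GCRMA 2.16 per the submitters' processing notes. The lowest value was 0.743 and the highest 15.6, and the median of an array lay between 2.75 and 2.83. No 2 arrays within a genotype came closer than 0.328 (root mean square of log2 differences).

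Of 45101 probe sets, 64 controls were left out, 34945 carried 1 symbol, 932 several and 9160 none. Each of 18193 genes was read from its probe set with the highest mean, and 8515 over log2 4 on at least 4 arrays were tested. All 4 genotypes entered 1 model (lmFit and eBayes of limma 3.58.1, run under R 4.3.3), two-sided, with Benjamini-Hochberg adjustment and a threshold of 0.05. The script was tested on simulated data. Precision is limited by the number of arrays. Gene order and promoters came from RefSeq tables of GRCm38.p6. Of 11 promoters sought 9 were matched, and Ccl2 and Nfkbiz are named only. Gene coordinates are left out because the annotation build of the array was not stated.

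The members, the 23 pathway and 10 marker lists and the tests were chosen with earlier results of these data known. The text names Ager, Myd88, every called gene and, per list, the 4 tested members of smallest p at most. Rela, Gucy1b1, Lrat, Dcn and Ccnf were chosen after their values were seen, and markers under log2 4 are named for their detection only. Alternatives covered scaling, low values, filters, probe set choice, arrays, blocks, the variance model and each array left out. Same-numbered double-null and WT arrays did not deviate together, but so few pairs cannot exclude that replicate numbers pair the samples.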

Additional observations from a re-analysis of the deposited data

Results flagged for a closer look

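In 17 of 272 groups of 4 or 5 arrays over 136 named genes, 1 array stood apart from the others by Dixon's criterion, which chance meets in about 1 of 20 groups. Among double-null arrays, replicate 1 had Pdk4 at 11.72 (the other 3 between 7.10 and 7.52) and Ier2 at 9.50 (10.28 to 10.37). Double-null replicate 3 had Emp2 at 6.61 (5.96 to 6.07), Bst2 at 11.53 (11.07 to 11.13) and Ighm at 3.96 (4.26 to 4.27). Double-null replicate 4 had Riok2 at 7.15 (7.72 to 7.81), Snapc2 at 7.71 (8.36 to 8.38), Per2 at 4.98 (4.23 to 4.30) and S100a9 at 9.81 (9.91 to 9.92).

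Among WT arrays, replicate 5 had Marco, a macrophage scavenger receptor, at 7.26 (the other 4 between 3.93 and 4.82) and Ly96 at 5.595 (6.05 to 6.18). WT replicate 1 had Atf4 at 9.14 (9.96 to 10.24) and Trib3 at 7.15 (6.095 to 6.34), and WT replicate 2 had Tollip at 8.34 (8.60 to 8.68). WT replicate 3 had Gucy1a1 at 5.61 (5.41 to 5.44). WT replicate 4 had H2-Bl at 7.63 (6.73 to 6.99) and Herpud1 at 13.25 (13.05 to 13.10).

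Among 1147 probe sets with no symbol or several that passed the same filter, 6 were called between double-null and WT livers (0.523%), 5 higher and 1 lower.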

How the results depend on the processing

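Of the 27 genes called between double-null and WT livers, 13 were called under all of the 21 alternatives that tested them. Gfer was among these 13 although its direction turned in 1 alternative. Over 608 pairs of gene and setting 78 lost the call. The 608 include estimates within the S ranges, which carry no test and could not lose a call. Gfer was reversed with the probe sets of a gene averaged (0.87). The count was 46 with the replicate number as a block, 42 with array weights, 24 after quantile normalization and between 18 and 29 with 1 array left out. Against Ager null livers (208 called, 136 higher and 72 lower) it was 91 with no filter, 138 with the replicate block and 619 with array weights. With the S range as a block it was 120, of which only 31 were among the 208. It was 18 to 141 with 1 array of either group left out and 298 without Myd88 null replicate 4. With each array centred on its median the split was 62 higher and 93 lower, and centring shifted the median double null minus WT difference of all genes by -0.09. Against Myd88 null livers (13 called) it was 5 with the S range block, 3 with the replicate block, 293 with array weights and 2 to 446 with 1 array left out. Of probe sets without a single symbol, 11 were called with the S range block, an alternative chosen after seeing the data. Correlations of same-numbered double-null and WT deviations lay between -0.23 and 0.07, which cannot exclude pairing by replicate number. Replicates 1 and 2 of both groups fall in S 1 to 6, and replicates 3 and 4 of both in S 7 to 12. The causes of these shifts were not tested. Values under about log2 4 lie near background, where differences are compressed.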

Other observations

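Ccnf, which encodes cyclin F and lies on chromosome 17, had the third largest fall in size of all tested genes, after Cxcl1 and 2010315B03Rik, and is named here after its values were seen. It averaged 3.40 ± 0.25 (SD, n = 4) in double-null, 5.09 ± 2.08 (n = 6) in Ager null, 7.645 ± 0.38 (n = 4) in Myd88 null and 6.65 ± 0.97 (n = 5) in WT livers, and the difference of -3.25 ± 0.81 did not pass the test in limma (adjusted p = 0.134).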
